A study of Mus musculus with 3 samples.

Results

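Both Barhl1 locus mutants were compared as a pair with wild type (WT). The genes described are those that averaged 1 FPKM or more across the 3 libraries, 12875 of the 47725 genes in the deposited tables. FPKM is the number of fragments scaled by transcript length and by the mapped reads of the library. It is not corrected for a different make-up of the RNA between libraries. The other scalings tried moved all mutant differences by 0.0809 and 0.0971 on the log2 scale. For each gene the mutant difference was the mean of log2(FPKM + 0.5) in the 2 mutants minus log2(FPKM + 0.5) in WT, and genes with a mutant difference of at least 1 in size are called 2-fold higher or 2-fold lower. Each line gave 1 library, so differences have no replicate check; sizes and the distance between the mutants are given, with no p-values.

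The mutant BEM line carries an altered E-box, named E3, and the mutant BM line an altered Barhl1; the sources used here do not state the kind of change or the number of clones. WT is the unaltered mouse embryonic stem cell line. Cells of each line had been made into otic progenitors, then grown for 9 days on embryonic chicken utricle stroma that had been stopped from dividing, in a medium that held 25 ng/ml EGF and 1 μM retinoic acid for all 3. The cultures are labelled hair cell-like. The sources used here do not say whether chicken reads were removed.

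Barhl1 is a homeobox factor of inner ear hair cells and of some neurons, where it is needed for survival of the cells. Atoh1, the basic helix-loop-helix factor that starts hair cell formation, binds E-boxes, and Barhl1 is known as one of its targets. The culture step with EGF and retinoic acid on utricle stroma is one that has been used to move otic progenitors towards hair cells; other descendants of stem cells, such as fibroblasts, smooth muscle and blood cells, can arise beside them in such cultures.

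The libraries held 23813123 reads (BEM), 20111794 reads (BM) and 21555823 reads (WT), as recovered from the FPKM steps, and 12237, 12204 and 13086 genes at 1 FPKM or more. Of the 16 hair cell markers used as a check of the label, 11 were under 1 FPKM in every library, and 3 of these, Tmc1, Pvalb and Pcp4, were at 0 in all 3 libraries. Each library had 5 of the markers at 0, not the same 5. Atoh1 stood at 241, 236 and 270.2 FPKM in BEM, BM and WT, and Myo7a, the hair bundle myosin, at 9.83, 9.79 and 0.704 FPKM. The panel of 6 otic progenitor markers summed to 4.26, 4.25 and 15.4 FPKM. The measured hair cell markers were Atoh1, Barhl1, Myo7a, Myo6 and Espn. Espn had 0.503, 0.565 and 2.08 FPKM in BEM, BM and WT, the other way from Myo7a. Pou4f3 had 1 read in each library. The label of hair cell-like cells therefore rests here on few of the markers, with Myo7a low in WT and Espn low in the mutants. It rests mostly on Atoh1 and, in BM and WT, Barhl1, whose values are less certain for the reason given below. The 6 fibroblast markers summed to 4431, 4536 and 2348 FPKM in the same order. Of these, Col1a1 and Col1a2 were 2-fold higher in the mutants and the others were not 2-fold different. Lum lay above WT in both mutants, and Col3a1, Pdgfra and Dcn lay below it. In bulk RNA, fewer cells of a type and less RNA per cell cannot be told apart, which holds for every gene group below.

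The level of Barhl1 itself was 0.0107 and 95.1 FPKM in BEM and BM, against 126 FPKM in WT. It was therefore close to 0 in the E-box mutant and near the WT level in the mutant of Barhl1, and its mean mutant difference of -4.18 averages unlike values. Atoh1 and Barhl1 were the 2 measured genes whose values did not resolve into whole reads at any length. The cause is not known, so their levels are less certain than those of other genes, and no counting interval is given for them.

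Across the measured genes, 1357 (10.5%) were 2-fold higher and 1960 (15.2%) were 2-fold lower in the mutants than in WT. At 4-fold the counts were 509 and 731, and at 16-fold 86 and 107. The median mutant difference was -0.07, and its median size was 0.52, a ratio of 1.43. The 2 mutants were far closer to each other: BEM and BM differed by a median of 0.06 on the log2 scale, a ratio of 1.04, and the gap that 90% of genes stayed under was 0.22 between the mutants and 1.96 between mutants and WT. BEM was 2-fold above BM in 59 genes (0.458%) and 2-fold below in 42 (0.326%), and 93 of those 101 were small RNA genes, predicted genes or clone names, most with under 5 FPKM.

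All 3317 genes called 2-fold in either direction were on the same side of WT in both mutants, and in 3205 of them (96.6%) the mutants lay within 1.5-fold of each other. The calls use the mean of the mutants, so a called gene with mutants on opposite sides would need BEM and BM far apart. For 99% of measured genes that gap was under 0.89 on the log2 scale, so the shared side was nearly fixed in advance. Both mutants are set against the same WT library, so a value that is off in that library moves both differences alike, and the distance between BEM and BM is the one measure here that WT does not enter. Read counts show how small that distance is. Over the 7931 protein-coding genes with reads at the annotated length and at least 50 reads in the pair, the squared BEM to BM deviation averaged 1.69 times that of counting alone, with 11.7% of genes outside the 95% counting limits; for BEM with WT the factor was 499 and for BM with WT 459. Sampling of reads is thus a small part of the differences from WT, but these figures say nothing of how far 2 cultures of 1 line would lie apart.

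**Figure D1:**
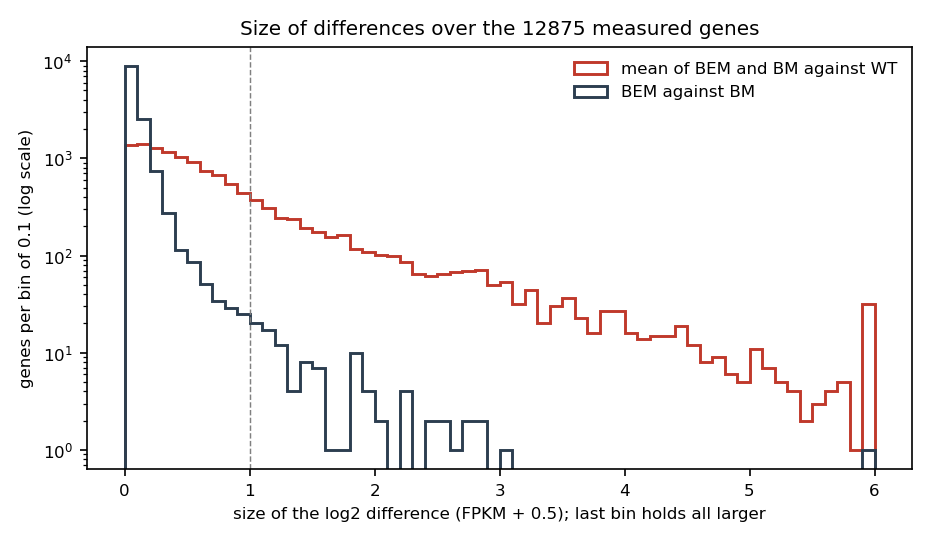
Histograms of the size of the log2 difference (FPKM + 0.5) over the 12875 measured genes, for the mean of BEM and BM against WT and for BEM against BM, with genes per bin of 0.1 on a log axis, the last bin holding all larger values and a dashed line at 1. The differences from WT have a median of 0.52 and a long tail, while those between the mutants have a median of 0.06 and reach 1 in 101 genes.

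Fold differences are ratios of the pooled mutant reads to the WT reads, scaled to the library totals, with their exact 95% counting interval (Clopper-Pearson) in brackets; where 1 side had no read, the bound uses a floor of 3 reads. Intervals and floors cover counting error only. The filter passes a gene through whichever library it is high in, so a count over the measured members of a list describes the list and is to be read against the 10.5% higher and 15.2% lower of all measured genes. Nothing is called particular to a list.

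Macrophage genes were mostly higher in the mutants, and several were near 0 in WT. PU.1, encoded by Spi1, is the factor that sets the myeloid fate, and Csf1r is the receptor through which macrophages survive. Spi1 had 9.15 and 9.65 FPKM in BEM and BM, against 0 FPKM in WT and was at least 182-fold higher. Csf1r had 14.5 and 15.1 FPKM in BEM and BM, against 0.019 FPKM in WT and was 779-fold higher (215 to 6436), and Adgre1, which encodes the F4/80 antigen, had 27.3 and 25.1 FPKM in BEM and BM, against 0.0429 FPKM in WT. Of 14 identity and growth factor receptor genes, 13 were measured, 10 were higher and none lower, for a median mutant difference of 3.06, which a pseudocount of 5 FPKM in place of 0.5 brought to 1.26. The panel of 8 macrophage markers summed to 1671, 1636 and 13 FPKM in BEM, BM and WT.

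Receptors that macrophages use to sense and clear debris were higher as well, 12 of 15 measured, with a median of 2.68 that fell under 2-fold size, to 0.81, at a pseudocount of 5. Trem2, a lipid-sensing receptor, had 13 and 11.7 FPKM in BEM and BM, against 0.0844 FPKM in WT (147-fold higher with an interval of 77.2 to 321). Mrc1, the mannose receptor, had 10.2 and 10.8 FPKM in BEM and BM, against 0.0801 FPKM in WT, and Fcer1g, the signalling chain of Fc receptors, was 101-fold higher (34.4 to 492). Among the effectors, 11 of 13 were higher. Lyz2, the lysozyme of macrophages, had 1409 and 1380.4 FPKM in BEM and BM, against 3.08 FPKM in WT, for the largest positive mutant difference of any measured gene, 8.61; it has a near-identical copy, with which reads may have been shared. Tyrobp, an adaptor of myeloid receptors, had 85 and 80.5 FPKM in BEM and BM, against 0.0696 FPKM in WT, and Gpnmb, a glycoprotein of lysosomes, had 173 and 174 FPKM in BEM and BM, against 0.484 FPKM in WT. Hmox1, the haem-degrading enzyme, was the 1 lower member, at 74.8 and 77.2 FPKM in BEM and BM, against 587 FPKM in WT, 7.74-fold lower (7.54 to 7.94).

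Genes of osteoclasts, which descend from the same lineage, followed: 5 of 6 measured were higher, among them Ctsk, the collagen-degrading cathepsin, at 43.8 and 43.2 FPKM in BEM and BM, against 7.85 FPKM in WT, and Acp5, the tartrate-resistant phosphatase, at 5 and 6.23 FPKM in BEM and BM, against 2.04 FPKM in WT. Mmp9 went the other way, at 12.2 and 12.8 FPKM in BEM and BM, against 26.8 FPKM in WT. Of 9 genes enriched in microglia, 6 were measured, with Fcrls, a microglial Fc receptor-like gene, 1170.4-fold higher (209.9 to 46248) over 1 WT read, and Sall1, a microglial identity factor that kidney and limb also use, 23.1-fold lower (16.3 to 33.9). None of 10 T, B and NK cell genes reached a mean of 1 FPKM. Of 10 genes of neutrophils and mast cells, Kit alone was measured, at 0.033 and 0.0614 FPKM in BEM and BM, against 3.97 FPKM in WT. The leukocyte genes present in the mutants were therefore those of the macrophage list and not of lymphocytes.

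The PU.1 site is shown for a complement gene and a protease of this group. The windows run from 250 bases before to 50 bases after the gene start, as RefSeq gives them for GRCm38.p6, on the strand of the gene, with the site (GAGGAAG on either strand) in capitals. C1qc lies at chr4:136892865-136893164 on the minus strand and has its site beginning 194 bases before the start. Ctss lies at chr3:95526536-95526835 on the plus strand, and its site begins 1 base before the start and runs past it.
C1qc: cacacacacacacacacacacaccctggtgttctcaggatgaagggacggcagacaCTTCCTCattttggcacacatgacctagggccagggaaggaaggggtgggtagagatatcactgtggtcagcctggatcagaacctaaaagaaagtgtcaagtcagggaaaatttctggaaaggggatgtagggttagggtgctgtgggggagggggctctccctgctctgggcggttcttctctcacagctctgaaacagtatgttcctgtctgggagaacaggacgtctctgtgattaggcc
Ctss: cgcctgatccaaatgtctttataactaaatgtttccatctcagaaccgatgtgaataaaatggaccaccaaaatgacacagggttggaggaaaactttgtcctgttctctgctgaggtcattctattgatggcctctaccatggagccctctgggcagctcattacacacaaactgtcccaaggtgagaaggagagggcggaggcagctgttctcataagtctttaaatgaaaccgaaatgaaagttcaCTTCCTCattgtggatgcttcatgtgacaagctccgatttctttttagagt
C1qc, a chain of the first complement component, had 53.5 and 52.3 FPKM in BEM and BM, against 0.048 FPKM in WT. Its partner chains C1qa (127 and 119.6 FPKM in BEM and BM, against 0 FPKM in WT) and C1qb (66.9 and 62.8 FPKM in BEM and BM, against 0.0426 FPKM in WT) were also high in both mutants and at or near 0 in WT. Ctss, the cathepsin that trims antigen in lysosomes, had 84.8 and 81.9 FPKM in BEM and BM, against 0.0342 FPKM in WT. Of the 12875 measured genes, 9074 had a RefSeq window; GAGGAAG was in 15.8% of their promoters, in 21% of those of genes 2-fold higher, 25.5% of those 4-fold higher, 15.3% of those 2-fold lower and 17.7% of those 4-fold lower. Genes with several windows have more chances of a match; among genes with 1 window the shares were 13.1% for all, 18.7% for higher and 11.9% for lower. A match of letters is a description of the window and not a bound site.

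Of 8 measured genes of class I antigen presentation 4 were higher and none lower, and of 3 class II genes 1 was higher and 2 lower. H2-D1, a class I heavy chain, had 137 and 134 FPKM in BEM and BM, against 15.7 FPKM in WT and was 8.65-fold higher (8.08 to 9.27), and B2m, the light chain that all class I molecules share, had 1125 and 1092 FPKM in BEM and BM, against 283 FPKM in WT. Nlrc5, which switches class I genes on, was 29.3-fold higher (18.5 to 49.7). Of the class II genes, H2-Ab1 was at 0 in both mutants and at 5.84 FPKM in WT, at least 229-fold lower, and Cd74, the invariant chain, was 10.3-fold lower (6.25 to 17.8), while H2-DMa was 3.58-fold higher (2.94 to 4.38). H2 genes have near-identical copies, and the sources do not say how shared reads were counted.

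Among 21 measured interferon-induced genes, 5 were higher and 2 lower. Irf7, an amplifier of the interferon response, had 14.8 and 14.2 FPKM in BEM and BM, against 0.599 FPKM in WT, and Oas2, a sensor of double-stranded RNA, was 10.9-fold higher (7.72 to 15.8). Ifitm1, a membrane protein that blocks viral entry, was 5.45-fold lower (4.56 to 6.54), and Bst2, which tethers virus to the cell surface, was 2.82-fold lower (2.73 to 2.91). The interferon element TTTCNNTTTC was in 3.59% of the promoters, 6.28% of those of higher genes and 2.8% of those of lower genes.

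Chemokines split in both directions. Of 11 CC ligands 5 were higher and 3 lower, and of 7 CXC and CX3C ligands 3 were higher and 4 lower. Ccl8, which draws monocytes, had 9.53 and 10.6 FPKM in BEM and BM, against 0.454 FPKM in WT, and Cxcl14, a tissue-resident chemokine, had 46.6 and 49.4 FPKM in BEM and BM, against 1.37 FPKM in WT. Ccl11, the eosinophil attractant, went the other way at 1.75 and 2.8 FPKM in BEM and BM, against 80.5 FPKM in WT, 36.1-fold lower (29.7 to 44.3), and Cxcl1, a neutrophil attractant, was 25-fold lower (21.2 to 29.7).

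Lysosomal genes were higher in part: 5 of 11 cathepsins and 9 of 20 other hydrolases and membrane proteins, with 3 of these lower. Ctsd, the aspartic protease found in lysosomes of most cells, had 1076 and 1075 FPKM in BEM and BM, against 382 FPKM in WT, and Grn, the progranulin gene, had 212 and 209 FPKM in BEM and BM, against 67 FPKM in WT. Man2b1, a mannosidase, was 3-fold lower (2.94 to 3.06). The cathepsin median was 0.92, and that of the macrophage identity genes 3.06.

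**Figure D2:**
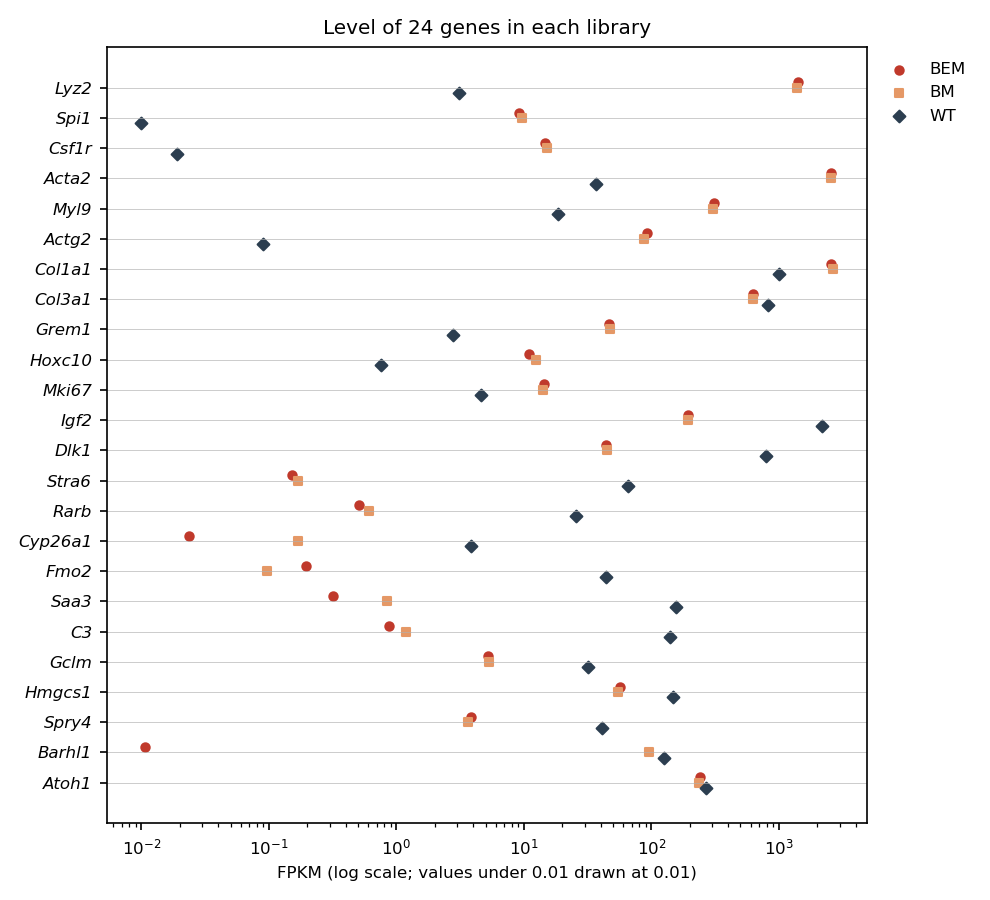
FPKM of 24 genes in the BEM, BM and WT libraries on a log axis, 1 point per library, with values under 0.01 drawn at 0.01. The BEM and BM points lie together and away from the WT point for most genes; Barhl1, with BEM alone near 0, and Atoh1 and Col3a1, with all 3 points close, are the exceptions, and Cyp26a1 and Saa3 show wider gaps between the mutants at low levels.

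Acute-phase proteins and inflammatory feedback genes were lower in the mutants. All 7 measured acute-phase genes of 19 listed were 2-fold lower, with a median of -5.44. At a pseudocount of 5 that median was -2.93, and over the 19 listed genes with no filter it was -1.58. Saa3, a serum amyloid gene, had 0.316 and 0.843 FPKM in BEM and BM, against 157 FPKM in WT. Hp, which encodes the haemoglobin scavenger haptoglobin, had 0 and 0.037 FPKM in BEM and BM, against 21.9 FPKM in WT and was 1294-fold lower (231 to 51188). Cp, the copper-carrying ferroxidase ceruloplasmin, had 0.189 and 0.244 FPKM in BEM and BM, against 37.6 FPKM in WT, and Steap4, a metalloreductase, had 0.253 and 0.158 FPKM in BEM and BM, against 34.7 FPKM in WT. Lbp, the carrier of bacterial lipopolysaccharide, was at 0.2 and 0.288 FPKM in BEM and BM, against 40.6 FPKM in WT, and Chil1, a chitinase-like secreted protein, at 0.12 and 0.231 FPKM in BEM and BM, against 44.9 FPKM in WT.

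Complement genes went both ways. The anaphylatoxin receptors C3ar1 (21.5 and 21.4 FPKM in BEM and BM, against 0.0431 FPKM in WT) and C5ar1 (8.07 and 8.09 FPKM in BEM and BM, against 0 FPKM in WT, at least 149-fold higher) were higher. C3, the component on which the complement pathways meet, was among the largest ratios on the lower side, at 0.882 and 1.18 FPKM in BEM and BM, against 139 FPKM in WT. In all, 5 of 12 measured were higher and 7 lower.

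Of 18 genes that NF-kB and cytokine signals induce, 11 were lower and 1 was higher. Il33, an alarm cytokine stored in nuclei, had 2.27 and 2.46 FPKM in BEM and BM, against 23.8 FPKM in WT, and Lif, the leukaemia inhibitory factor, was 6.56-fold lower (5.99 to 7.2). Cebpd and Cebpb are factors of the acute-phase response. Cebpd had 21.7 and 24.6 FPKM in BEM and BM, against 133 FPKM in WT, and Cebpb had 41.3 and 41.8 FPKM in BEM and BM, against 184 FPKM in WT. Il11 was the member higher in the mutants, at 1.42 and 1.51 FPKM in BEM and BM, against 0.231 FPKM in WT. The inflammatory groups therefore did not move one way: macrophage genes were higher while acute-phase and feedback genes were lower in the same libraries.

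Contractile genes of smooth muscle were mostly higher too. Of 8 actins and myosins 7 were higher and none lower, for a median of 3.29, or 2.11 at a pseudocount of 5. The smooth muscle actins Acta2 (2578 and 2576 FPKM in BEM and BM, against 37 FPKM in WT) and Actg2 (93 and 88.3 FPKM in BEM and BM, against 0.0894 FPKM in WT) were both among the largest ratios of all on the higher side. Myl9, the regulatory light chain of smooth muscle myosin, had 308 FPKM in BEM and 303 FPKM in BM cultures, against 18.6 FPKM in WT, 16.5-fold higher (15 to 18.1). Myh11, the smooth muscle heavy chain, had 13.5 and 13.1 FPKM in BEM and BM, against 0.364 FPKM in WT, and Myh9, the non-muscle heavy chain, was 6.06-fold higher (5.94 to 6.18). Of 16 thin filament and cytoskeletal genes 11 were higher, led by Cnn1 (calponin) at 43.5 and 43.8 FPKM in BEM and BM, against 0.392 FPKM in WT and Tagln (transgelin) at 1035 and 1000.1 FPKM in BEM and BM, against 26.3 FPKM in WT. Pdlim3, which links actinin to actin, was 38.9-fold lower (28.2 to 55.1), and Smtn, the smooth muscle protein smoothelin, was 2.47-fold lower (2.36 to 2.59).

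Genes known to drive the contractile programme were not among the higher ones. None of the 5 measured regulators was 2-fold higher. Srf, the factor that binds CArG boxes, had 24 and 24.3 FPKM in BEM and BM, against 13 FPKM in WT, and Mkl1, a cofactor that responds to actin, had 11.2 and 12.1 FPKM in BEM and BM, against 20.7 FPKM in WT. Foxf1, of visceral smooth muscle, was 14.7-fold lower (10.9 to 20.4), and Gata6, of vascular smooth muscle, was 3.62-fold lower (3.37 to 3.89). Myocd, the smooth muscle cofactor of Srf, did not reach a mean of 1 FPKM.

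The Myl9 promoter is shown as a picked example of a higher gene whose window holds a CArG box. Acta2 and Tagln had higher levels, and their windows are not shown. The window lies at chr2:156775214-156775513 on the plus strand (RefSeq, GRCm38.p6), with the box in capitals, beginning 161 bases before the start.
Myl9: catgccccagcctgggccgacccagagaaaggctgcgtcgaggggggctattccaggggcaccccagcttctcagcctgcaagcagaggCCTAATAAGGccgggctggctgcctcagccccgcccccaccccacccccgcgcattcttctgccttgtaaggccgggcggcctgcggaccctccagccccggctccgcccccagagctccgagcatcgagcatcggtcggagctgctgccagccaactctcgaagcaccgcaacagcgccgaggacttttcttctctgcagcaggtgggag
A CArG box was in 1.56% of measured promoters, in 3.19% of those of genes 2-fold higher and in 1.01% of those 2-fold lower; among genes with 1 window the shares were 1.39%, 3.44% and 0.798%. The AP-1 site (TGACTCA or TGAGTCA) was in 4.54% of all, 6.83% of higher and 5.91% of lower genes, and the E-box CANNTG in 66.5%, 71.0% and 69.6%, both strands being searched. The classes overlap, since the 300-base windows can hold several motifs.

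Other muscle was largely missing. None of 10 cardiac genes was measured, and of 13 skeletal genes 2 were: Acta1, an actin of striated muscle, had 19.6 and 18 FPKM in BEM and BM, against 0.0647 FPKM in WT, and Tnnt3, a troponin, was 12.2-fold lower (8.6 to 17.6). Actin genes are near-identical over much of their coding length, so reads of Acta2 and Actg2 could have been counted at Acta1. Of 6 pericyte genes 3 were higher and 2 lower: Cspg4, the NG2 proteoglycan, had 40.1 and 40.8 FPKM in BEM and BM, against 2.78 FPKM in WT, while Rgs5, a regulator of G protein signals, was 20-fold lower (14.7 to 27.8).

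Extracellular matrix genes went both ways. Of 10 fibrillar collagen genes 6 were higher: Col5a2 had 362 FPKM in BEM and 364 FPKM in BM cultures, against 22.6 FPKM in WT, 16-fold higher (15.6 to 16.5), and Col1a2 was 5.2-fold higher (5.16 to 5.25). Col11a2 was the lower member, at 0.842 and 1.2 FPKM in BEM and BM, against 4.01 FPKM in WT. Network and basement membrane collagens went both ways, 2 higher and 4 lower of 9; Col8a1 had 123 and 125 FPKM in BEM and BM, against 7.59 FPKM in WT, while Col15a1 was 5.19-fold lower (4.86 to 5.56). Of 18 enzymes that process collagen 6 were higher, with Lox, the crosslinking oxidase, at 407 and 418 FPKM in BEM and BM, against 93.5 FPKM in WT, and 4 lower.

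Elastic fibre genes were higher in 7 of 14 cases. Fbln5, which assembles elastin, had 99.1 and 97.3 FPKM in BEM and BM, against 2.46 FPKM in WT and was 40-fold higher (35.7 to 44.8), and Fbln2 had 734 and 755 FPKM in BEM and BM, against 71.8 FPKM in WT. Efemp1 was 2.37-fold lower (2.23 to 2.53) and Emilin1 2.3-fold lower (2.23 to 2.37). Bgn, a small leucine-rich proteoglycan, had 639.6 and 652 FPKM in BEM and BM, against 38.1 FPKM in WT, and Fmod, which binds collagen fibrils, was 31.4-fold higher (23.7 to 42.6). Lum, of the same family, was not 2-fold different, at 87.1 and 82.7 FPKM in BEM and BM, against 47.3 FPKM in WT.

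Among 17 matricellular genes 7 were higher and 4 lower. Tnc, the tenascin of embryonic and wounded tissue, had 499 and 506 FPKM in BEM and BM, against 35 FPKM in WT, and Tnxb, the tenascin of loose connective tissue, was 38.8-fold lower (34.7 to 43.4). Wisp2, a CCN family protein, had 44.7 and 45.7 FPKM in BEM and BM, against 0.145 FPKM in WT. The pair of tenascins thus lay on opposite sides of WT.

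Laminins leaned lower, 5 of 10 against 1 higher, with a median of -1.05. That median was -0.71 at a pseudocount of 5 and -0.90 with each chromosome centred on its median, both under 2-fold size. At a pseudocount of 0.05 it was -1.07. Lama5, the epithelial alpha chain, had 3.39 and 3.75 FPKM in BEM and BM, against 56.1 FPKM in WT (15.8-fold lower with an interval of 15 to 16.6), and Lama1 was 17.7-fold lower (15.8 to 19.9), whereas Lama2, the muscle and nerve alpha chain, had 6.43 and 6.38 FPKM in BEM and BM, against 0.239 FPKM in WT. Integrins also went both ways, 3 higher and 5 lower of 16. Itga3, a laminin receptor of epithelia, had 0.963 and 0.975 FPKM in BEM and BM, against 28.7 FPKM in WT, while Itga11, a collagen receptor of fibroblasts, had 24.7 and 25.6 FPKM in BEM and BM, against 1.9 FPKM in WT. Mmp2, the gelatinase, was 6.33-fold lower (6.22 to 6.44), at 125 and 126 FPKM in BEM and BM, against 792 FPKM in WT, and Mmp14, the membrane protease that activates it, was 3.07-fold higher (2.99 to 3.14).

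Retinoic acid was added to every culture, and most measured genes that make, degrade or answer to it were lower in the mutants, while its receptors and carriers were mixed. Rarb, the receptor gene that retinoic acid itself induces through a direct repeat in its promoter, had 0.512 FPKM in BEM and 0.606 FPKM in BM cultures, against 25.8 FPKM in WT and was 46.5-fold lower (39.4 to 55.2). Cyp26b1 and Cyp26a1 destroy retinoic acid and are induced by it. Cyp26b1 had 3.88 and 4.61 FPKM in BEM and BM, against 110.1 FPKM in WT, and Cyp26a1 had 0.0237 and 0.168 FPKM in BEM and BM, against 3.85 FPKM in WT. Dhrs3, a retinal reductase, was 13.5-fold lower (12.8 to 14.3). Lrat, which stores retinol as an ester, had 0 and 0.00929 FPKM in BEM and BM, against 13.3 FPKM in WT. In all, 6 of 8 measured enzymes were lower, for a median of -2.91, or -1.12 at a pseudocount of 5; Aldh1a1, which makes retinoic acid, was the higher one, at 9.68 and 9.66 FPKM in BEM and BM, against 4.07 FPKM in WT.

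The direct repeats with a spacing of 5 bases that the search found in these windows are shown in capitals for Rarb (chr14:16575427-16575726, minus strand) and Cyp26a1 (chr19:37697558-37697857, plus strand; the repeat reads on the opposite strand), in RefSeq windows of GRCm38.p6. They begin 53 and 32 bases before the gene start.
Rarb: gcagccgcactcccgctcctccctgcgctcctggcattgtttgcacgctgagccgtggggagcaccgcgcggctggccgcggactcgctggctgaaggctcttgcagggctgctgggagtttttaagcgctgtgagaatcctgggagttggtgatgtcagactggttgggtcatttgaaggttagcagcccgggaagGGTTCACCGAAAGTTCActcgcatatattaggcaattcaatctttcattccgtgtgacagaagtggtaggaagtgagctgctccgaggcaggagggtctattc
Cyp26a1: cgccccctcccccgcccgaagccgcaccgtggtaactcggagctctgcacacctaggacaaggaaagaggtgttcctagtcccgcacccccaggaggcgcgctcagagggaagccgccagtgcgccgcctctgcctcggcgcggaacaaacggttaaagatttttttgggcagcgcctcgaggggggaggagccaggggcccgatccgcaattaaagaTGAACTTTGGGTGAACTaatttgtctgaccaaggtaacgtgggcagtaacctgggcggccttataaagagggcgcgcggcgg
Such a repeat was in 6 of the 9074 promoters (0.0661%). Rarb, Cyp26a1, Blvrb (6.99 and 6.45 FPKM in BEM and BM, against 23.6 FPKM in WT) and Tnfsf13b (0.0978 and 0.0579 FPKM in BEM and BM, against 3.1 FPKM in WT) were lower in the mutants; Syndig1 (7.37 and 9.02 FPKM in BEM and BM, against 1.21 FPKM in WT) was higher, and Gm4631 (11.6 and 11.2 FPKM in BEM and BM, against 10.3 FPKM in WT) was neither. The last 4 are named because they complete the 6, not by level. With 6 genes the shares among higher (0.11%) and lower (0.311%) promoters rest on 1 and 4 genes.

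Of 10 measured receptors and carriers 4 were lower, 1 higher and 5 neither, for a median of -0.66. The FPKM of the 11 listed genes summed to 627 in BEM and 623 in BM, against 267 in WT, but Crabp1 alone made up most of both mutant sums. Crabp1, a cytosolic carrier of retinoic acid, was 40.3-fold higher (35.4 to 46.1) in the mutants, at 541 and 537 FPKM in BEM and BM, against 13.4 FPKM in WT, while the retinol carrier Rbp4 was 23.9-fold lower (12.9 to 49.1). Stra6, the membrane receptor that takes up retinol, had 0.151 and 0.171 FPKM in BEM and BM, against 65.2 FPKM in WT. Of 7 measured target genes 5 were lower, with Nr2f1, an orphan receptor, at 0.884 and 0.889 FPKM in BEM and BM, against 8.72 FPKM in WT and Meis2, a homeobox cofactor, at 3.34 and 3.53 FPKM in BEM and BM, against 13.5 FPKM in WT; Rarres1 was 5.02-fold higher (2.53 to 11.3).

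EGF was the other factor added to all cultures. Genes that ERK signalling induces, several of which restrain it, were lower in 11 of 15 cases and higher in none, for a median of -1.74. Spry4, an inhibitor of receptor kinase signals, had 3.85 and 3.62 FPKM in BEM and BM, against 41.2 FPKM in WT, and Dusp6, the ERK phosphatase, had 11.5 and 12 FPKM in BEM and BM, against 71.8 FPKM in WT. Etv4, an ETS factor downstream of FGF, was 6.72-fold lower (6.18 to 7.32). Egfr, the EGF receptor, was 2.5-fold lower (2.43 to 2.58), and its ligand gene Areg had 0.864 and 0.982 FPKM in BEM and BM, against 18.3 FPKM in WT. Nrg1, which signals through related receptors, was 4.64-fold higher (4.14 to 5.22). Of 9 FGF ligand and receptor genes 2 were higher and 3 lower, for a median of -0.36 that turned to 0.13 when each chromosome was centred on its own median. Fgf1 was 99.1-fold lower (68.7 to 148) and Fgf21 37.6-fold lower (25.7 to 57.2), while Fgf10, of limb and lung mesenchyme, was 2.6-fold higher (2.12 to 3.21).

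In the Wnt pathway 8 of 17 receptors and targets were lower. Axin2, the feedback inhibitor used as a readout of Wnt signalling, had 0.991 and 0.894 FPKM in BEM and BM, against 4.56 FPKM in WT, and Tcf7 was 15.5-fold lower (11.7 to 20.9). Lgr5, the R-spondin receptor of stem and supporting cells, went the other way at 6.33 and 5.91 FPKM in BEM and BM, against 0.0316 FPKM in WT, with 1548, 1220 and 7 reads in BEM, BM and WT, a ratio of 194-fold higher (94.1 to 483). Ligands and secreted modulators split evenly: Wnt2 was 24.8-fold higher (10.5 to 77.1) and Wnt6 43.3-fold lower (32.9 to 58), and Frzb, which binds Wnt outside the cell, had 1.96 and 2.2 FPKM in BEM and BM, against 82.7 FPKM in WT while Sfrp2, of the same family, was 5.87-fold higher (4.76 to 7.31).

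Of 11 measured BMP antagonists 3 were higher and none lower. Grem1, an antagonist of limb and gut, had 46.6 and 47.3 FPKM in BEM and BM, against 2.78 FPKM in WT. Fst, which traps activin, was 6.06-fold higher (5.43 to 6.79), and Inhba, which encodes the activin subunit, had 98.2 and 95.8 FPKM in BEM and BM, against 5.86 FPKM in WT. The BMP ligand Bmp7 had 0 and 0.0371 FPKM in BEM and BM, against 12.3 FPKM in WT, 721-fold lower (246 to 3503), and Bmp6 was 5.71-fold lower (4.88 to 6.71). Of the Id genes, which BMP signals induce, Id1 was 3.94-fold lower (3.7 to 4.19) and Id3 2.65-fold lower (2.53 to 2.77), while Id4 was 6.6-fold higher (5.32 to 8.27) and Id2 2.97-fold higher (2.67 to 3.3).

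In the IGF system Igf2, the fetal growth factor, was among the 6 most abundant genes of the WT library at 2181 FPKM, with 194 FPKM in each mutant, 11.2-fold lower (11.1 to 11.4). Igf1 went the other way at 5.28 and 5.07 FPKM in BEM and BM, against 0.59 FPKM in WT. The binding protein gene Igfbp4 had 20.1 and 21.1 FPKM in BEM and BM, against 329.8 FPKM in WT, and Igfbp5 had 42.9 and 43.1 FPKM in BEM and BM, against 592 FPKM in WT. The proteases that cut them also parted: Pappa2 was 23.2-fold lower (21.4 to 25.3) and Pappa 10.2-fold higher (9.61 to 10.9).

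Igf2 is expressed from the paternal allele, and of 13 measured genes expressed from that allele 9 were lower and none higher, for a median of -1.96, or -1.10 at a pseudocount of 5. Dlk1, a Notch-like membrane protein, had 44.5 FPKM in BEM and 44.5 FPKM in BM cultures, against 791 FPKM in WT, 17.8-fold lower (17.4 to 18.1). Peg10, which derives from a retrotransposon, had 3.19 and 3.15 FPKM in BEM and BM, against 42.8 FPKM in WT. Of 11 maternally expressed genes 2 were higher and 3 lower. Grb10, an adaptor that restrains insulin receptor signals, had 99.2 and 98.2 FPKM in BEM and BM, against 0.475 FPKM in WT, 208-fold higher (169.7 to 258), while Cdkn1c, a cell cycle inhibitor, was 8.97-fold lower (8.43 to 9.55) and Zim1, a zinc finger gene beside Peg3, 15.2-fold lower (14.1 to 16.4). H19, which shares an imprinting control region with Igf2, had 756 and 779 FPKM in BEM and BM, against 412 FPKM in WT and was not 2-fold different; it is named for that link, after its values were seen. No allele was read out, so these are total levels.

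**Figure D3:**
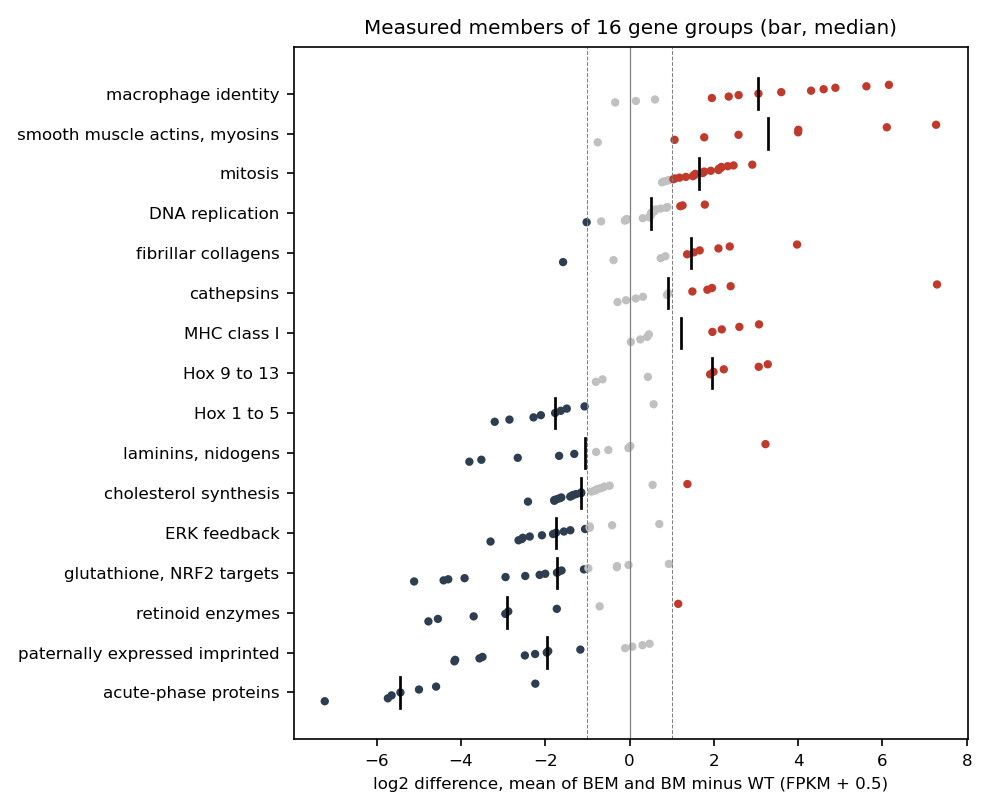
Mutant difference of the measured members of 16 gene groups, 1 point per gene, on the log2 scale (FPKM + 0.5), with a bar at each group's median and dashed lines at -1 and 1. Macrophage identity genes (median 3.06) and contractile genes (3.29) lie to the right, acute-phase genes (-5.44) and retinoid enzymes (-2.91) to the left, and several groups hold members on both sides.

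Hox genes encode position along the body axis, with low paralogue numbers expressed towards the head and high ones towards the tail. Of 9 measured genes of paralogue groups 1 to 5, 8 were lower and none higher, for a median of -1.77. Of 8 in groups 6 to 8, 4 were lower and 1 higher. Of 8 in groups 9 to 13, 5 were higher and none lower, for a median of 1.95. The central median was -1.06, between the other 2, and it was 0.03, from 3 genes, without chromosomes 1, 8, 11 and 15. At a pseudocount of 5 the anterior, central and posterior medians were -0.80, -0.72 and 0.48, all under 2-fold size.

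Hoxa5 had 2.73 and 3.42 FPKM in BEM and BM, against 32.2 FPKM in WT (10.6-fold lower with an interval of 9.22 to 12.1) and Hoxb4 3.99 and 3.45 FPKM in BEM and BM, against 17.6 FPKM in WT. Hoxc10 had 10.9 and 12.5 FPKM in BEM and BM, against 0.753 FPKM in WT (15.4-fold higher with an interval of 10.8 to 22.8), Hoxa10 was 45.3-fold higher (21.9 to 113), and Hoxd13, the gene of the distal limb, had 2.06 and 2.74 FPKM in BEM and BM, against 0.112 FPKM in WT. Within the HoxA cluster on chromosome 6, Hoxa3, Hoxa4, Hoxa5 and Hoxa6 were lower and Hoxa9 and Hoxa10 higher. The HoxB cluster lies on chromosome 11 and HoxC on chromosome 15, chromosomes whose medians lay below 0 (given with the chromosomes); after centring each chromosome on its own median the 3 roles had medians of -1.51, -0.63 and 1.92.

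**Figure D4:**
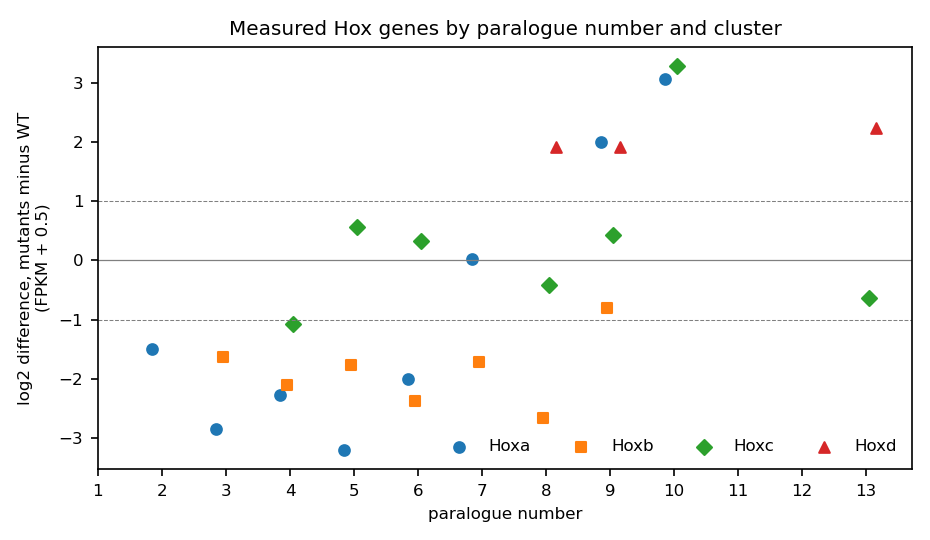
Mutant difference of the measured Hox genes, as log2(FPKM + 0.5) in the mutants minus WT, by paralogue number, marked by cluster, with dashed lines at -1 and 1. Of paralogues 1 to 5, 8 of 9 lie below -1, and of paralogues 9 to 13, 5 of 8 lie above 1.

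Other patterning factors of limb, trunk and face were mixed, 7 higher and 8 lower of 23 measured. Shox2, a homeobox gene of the proximal limb and the sinoatrial node, had 8.33 and 8.94 FPKM in BEM and BM, against 0.378 FPKM in WT. Prrx1, of limb and face mesenchyme, was 4.09-fold higher (3.92 to 4.27), and Prrx2 was 7.97-fold higher (6.82 to 9.37). Hand2, of the posterior limb bud and branchial arches, had 3.68 and 3.25 FPKM in BEM and BM, against 37.2 FPKM in WT, and Tbx2 was 9.34-fold lower (8.28 to 10.6). Forkhead genes were lower in 5 of 10 cases; Foxa1, a pioneer factor of endoderm, had 0 and 0.0312 FPKM in BEM and BM, against 12.6 FPKM in WT, and Foxc1 was 8.99-fold lower (7.48 to 10.9).

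Factors of the otic lineage were lower in 6 of 9 measured. Gata3 had 0.866 and 0.725 FPKM in BEM and BM, against 4.23 FPKM in WT, and Sox2, a factor of the prosensory domain, had 0.163 and 0.242 FPKM in BEM and BM, against 4.22 FPKM in WT. These levels are low in every library. Of the 2 higher members, Tbx1 had 1.58 and 2.01 FPKM in BEM and BM, against 0.235 FPKM in WT and Eya4 3.33 and 4.19 FPKM in BEM and BM, against 1.04 FPKM in WT. Of 10 supporting cell genes 5 were higher, 4 after centring each chromosome, and 2 lower. Sparcl1, a secreted matrix protein, was 1 of the lower members, at 5.68 and 5.57 FPKM in BEM and BM, against 286 FPKM in WT. The FPKM of the listed genes summed to 103 in BEM and 104 in BM, against 329 in WT, but Sparcl1 alone made up most of that WT sum. The median mutant difference of the measured supporting cell genes was 0.78. The higher members included Jag1, the Notch ligand, at 43.3 and 42.7 FPKM in BEM and BM, against 3.2 FPKM in WT and Gjb2, the connexin of the cochlea, at 4.7 and 4.69 FPKM in BEM and BM, against 0.289 FPKM in WT. Of 19 epithelial genes 6 were measured and 5 were lower, with Krt18, a simple keratin, at 3.93 and 3.76 FPKM in BEM and BM, against 27.2 FPKM in WT.

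Genes of other cell types were mostly below the filter. Of 11 chondrocyte genes Sox9 and Pth1r were measured, with Sox9 3.08-fold lower (2.84 to 3.33) and Pth1r 3.07-fold lower (2.66 to 3.54). Of 16 endoderm and liver genes 3 were measured, of 15 pluripotency genes 3, of 23 neuron genes 6 and of 10 melanocyte genes 2. Gap43, of growing axons, had 26.7 and 27.4 FPKM in BEM and BM, against 0.853 FPKM in WT, and Nefm, a neurofilament, was 65.5-fold lower (44.4 to 101). Secretory and neuropeptide genes were lower in 6 of 9 cases, with Npy (27.1 and 28.2 FPKM in BEM and BM, against 0.82 FPKM in WT) and Cck (7.48 and 7.33 FPKM in BEM and BM, against 0 FPKM in WT) higher. Scg2, a secretogranin, had 0.367 and 0.336 FPKM in BEM and BM, against 97.3 FPKM in WT. Adipocyte regulators were lower in 4 of 6 cases, among them Pparg, at 0.782 and 0.876 FPKM in BEM and BM, against 6.19 FPKM in WT.

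Of 24 genes of mitosis 20 were higher and none lower, for a median of 1.65, or 0.95 at a pseudocount of 5. Kif20a, a kinesin of the dividing midzone, had 19.1 and 18 FPKM in BEM and BM, against 2.03 FPKM in WT (9.16-fold higher with an interval of 7.83 to 10.8), Cdc20, the activator of the anaphase complex, was 5.29-fold higher (4.69 to 5.99), and Plk1, a mitotic kinase, was 5.02-fold higher (4.28 to 5.92). Of 23 replication genes 3 were higher, with Rrm2, a subunit of ribonucleotide reductase, at 30.9 and 30.3 FPKM in BEM and BM, against 8.52 FPKM in WT, and the median was 0.52. Ccne1, the cyclin of S phase entry, was 2.09-fold lower (1.91 to 2.3).

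Of 12 cell cycle inhibitors 5 were lower and 2 higher. Cdkn2a, the locus of p16 and p19ARF, had 38.4 and 37.2 FPKM in BEM and BM, against 254 FPKM in WT, and Gadd45a, which answers to DNA damage, was 5.04-fold lower (4.72 to 5.38). Cdkn2c, of the same family as Cdkn2a, was 3.76-fold higher (2.99 to 4.77). Most mitosis genes were thus higher in libraries where more inhibitors were lower than higher.

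Most groups of stress and metabolic genes leaned lower, while the unfolded protein and amino acid response did not. Of 17 measured glutathione and NRF2 genes 12 were lower and none higher, for a median of -1.72. Nqo1, a quinone reductase, had 5.49 FPKM in BEM and 5.41 FPKM in BM cultures, against 126 FPKM in WT, 23.1-fold lower (20.8 to 25.8). Gclc, which makes the first step of glutathione synthesis, was 16-fold lower (15 to 17.1). The ferritin genes Fth1 and Ftl1, iron stores that NRF2 also induces, were among the 5 most abundant genes in WT. Fth1 had 1328 and 1345 FPKM in BEM and BM, against 3131 FPKM in WT, and Ftl1 had 1244 and 1252 FPKM in BEM and BM, against 2669 FPKM in WT. Gstm1 has near-identical relatives and is uncertain for that reason.

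The antioxidant element TGACNNNGC, added after the values were seen, was in 17.2% of promoters, 14.9% of those of higher and 16.7% of those of lower genes. Among 12 oxidoreductases 8 were lower, with Cyp1b1, which oxidises steroids and xenobiotics, at 16.8 and 17.4 FPKM in BEM and BM, against 140.2 FPKM in WT, and Aox3, an aldehyde oxidase, at 0.0119 and 0.00707 FPKM in BEM and BM, against 17.3 FPKM in WT.

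Cholesterol synthesis was lower in 12 of 22 genes, with a median of -1.15. That median was -0.92 at a pseudocount of 5 and -0.90 without chromosomes 1, 8, 11 and 15, both under 2-fold size. With each chromosome centred on its median it was -1.08, and at 10 FPKM or more -1.24. Insig1, which holds the pathway's regulator in the endoplasmic reticulum, had 23.6 and 24.5 FPKM in BEM and BM, against 129.9 FPKM in WT, and Srebf2, that regulator, had 48 and 49.9 FPKM in BEM and BM, against 156 FPKM in WT. The enzyme gene Msmo1 was 3.54-fold lower (3.39 to 3.7) and Mvd 3.33-fold lower (3.12 to 3.55). Fatty acid genes were lower in 3 of 11, with Scd1, the desaturase, at 25.6 and 26.4 FPKM in BEM and BM, against 68.6 FPKM in WT. The sterol element TCACCCCAC, also added after the values were seen, was in 0.749% of promoters, 1.21% of higher and 0.856% of lower genes.

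Heat shock genes were lower in 6 of 12 cases. Hspb1, a small heat shock protein, had 61.1 and 62.1 FPKM in BEM and BM, against 581 FPKM in WT, while Cryab, of the same family, was 4.15-fold higher (3.76 to 4.59). Hspa1b had 26.4 and 27.3 FPKM in BEM and BM, against 354 FPKM in WT; Hspa1a is its near-identical neighbour, so the split of reads between them is uncertain. In the unfolded protein and amino acid response 4 of 19 were higher and 2 lower, for a median of 0.52. Among the higher members were Chac1, which degrades glutathione, 8.89-fold higher (6.74 to 12), and Asns, the asparagine synthetase, 3.12-fold higher (2.91 to 3.34). Slc7a11, the cystine importer, was 16.1-fold lower (14.5 to 17.8).

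Housekeeping genes did not give a steady scale. Of 14, 5 were higher (B2m, Rplp0, Gusb, Hprt and Actb) and none lower, with a median of 0.21. Gapdh, picked after its values were seen, had 35.8 and 36.2 FPKM in BEM and BM, against 35.3 FPKM in WT. The balance differed by level: of 3151 genes with a mean of 1 to 3 FPKM, 13% were higher and 23.4% lower, while of 435 genes at 100 FPKM or more 20.2% were higher and 8.97% lower. Lower calls were thus the more frequent among low genes and higher calls among abundant genes.

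Some genes differed in presence. Under 0.1 FPKM in WT and at 5 FPKM or more in both mutants were 51 genes (0.396%); 5 FPKM or more in WT and under 0.1 FPKM in both mutants were 55 genes (0.427%). Of the 51, 12 are in the macrophage, microglia or osteoclast lists, and none of the 55 is; 10 and 8 carry predicted or clone names. Cav1, the coat protein of caveolae, was not absent from WT but had 1 of the largest ratios, with 178 and 175 FPKM in BEM and BM, against 1.29 FPKM in WT; Lilrb4a, an inhibitory receptor of myeloid cells, had 74.6 and 74.2 FPKM in BEM and BM, against 0.498 FPKM in WT. Ecel1, an endopeptidase of neurons, had 0.192 and 0.0568 FPKM in BEM and BM, against 123 FPKM in WT, for the lowest mutant difference of any measured gene, -7.64. Rtn4rl2, a relative of the Nogo receptor, had 0.0558 and 0.198 FPKM in BEM and BM, against 46.7 FPKM in WT, Fmo2, a flavin monooxygenase, 0.195 and 0.0975 FPKM in BEM and BM, against 44.3 FPKM in WT, and G0s2, which inhibits lipolysis, 0.675 and 0.457 FPKM in BEM and BM, against 74 FPKM in WT. Also among the largest ratios on this side, Atp1b2, a sodium pump subunit, had 0.38 and 0.377 FPKM in BEM and BM, against 45.2 FPKM in WT, and Islr, a marker of mesenchymal cells, had 6.48 and 6.36 FPKM in BEM and BM, against 311 FPKM in WT.

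Of the genes near 0 in WT, Lrrc15, a membrane protein, had 49 and 48.6 FPKM in BEM and BM, against 0.0874 FPKM in WT, and Tnmd, of tendon, 13.7 and 12.8 FPKM in BEM and BM, against 0.0686 FPKM in WT. Of those near 0 in the mutants, Alpl, the tissue-nonspecific phosphatase, had 0.0312 and 0.0247 FPKM in BEM and BM, against 15.9 FPKM in WT. Tfap2c, a factor of trophoblast, germ cells and skin, had 0.0228 and 0.0541 FPKM in BEM and BM, against 9.95 FPKM in WT, and Podxl, of podocytes and stem cells, 0.0765 and 0.0725 FPKM in BEM and BM, against 6.67 FPKM in WT.

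Xist, the RNA that silences an X chromosome, was also in the first group, at 18.5 and 18.6 FPKM in BEM and BM, against 0.0233 FPKM in WT, with 7894, 6698 and 9 reads, 796-fold higher (419 to 1740.4). The Y-linked genes were present in all 3 lines: Ddx3y had 11.6 and 11 FPKM in BEM and BM, against 8.18 FPKM in WT and Uty 2.35 and 2.09 FPKM in BEM and BM, against 2.29 FPKM in WT. Xist and Y-linked RNA were thus both read in the libraries of the mutants. Whether they came from the same cells cannot be told from bulk RNA.

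Chromosomes 1, 8, 11 and 15 stood apart from the rest. Their median mutant differences were -0.41 (775 genes), -0.49 (688 genes), -0.45 (1070 genes) and -0.49 (523 genes), against -0.05 to 0.13 on the other autosomes. Of their 3056 genes together, 74% lay below WT in the mutants, with 6.97% called higher and 23.2% lower; of the 9754 genes on the other autosomes and X, 47.7% lay below WT, with 11.6% higher and 12.7% lower. The chromosome medians of BEM minus BM were at most 0.02 in size.

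The lean was spread along these chromosomes. In windows of about 40 neighbouring protein-coding genes, 66 of the 69 on chromosomes 1, 8, 11 and 15 had a median below -0.2, against 10 of 219 elsewhere; the 69 medians ranged from -0.79 to -0.15. Among those 10 were the last windows of chromosome 14, whose last of 4 equal parts of genes, starting at 69697307 (GRCm38), had a median of -0.39 with 69.6% of genes below WT, while its first 3 parts had medians of 0.12, 0.14 and 0.12. A window of chromosome 17 that begins at Pim1 and ends at Hnrnpm had -0.46. At 10 FPKM or more the 4 chromosomes kept medians of -0.31, -0.41, -0.38 and -0.49.

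DNA copy number was not measured, and its part in the differences was not tested. Centring each chromosome on its median moved the median of a gene list role by at most 0.49 and its higher or lower count by at most 2 genes. The smooth muscle regulators went to -0.31, with -0.81 before, and the IGF binding proteins to -0.76, with -1.21 before.

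**Figure D5:**
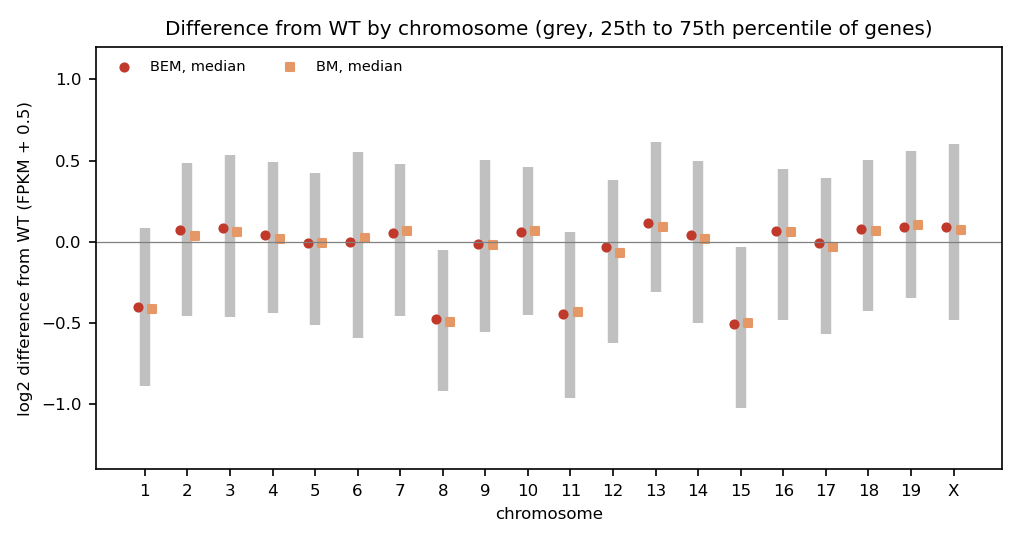
Median difference from WT on the log2 scale (FPKM + 0.5) of the measured genes of each chromosome, for BEM and BM, over grey bars from the 25th to the 75th percentile of the mean mutant difference. Chromosomes 1, 8, 11 and 15 lie at -0.41 to -0.49 in the mean of the mutants, the others near 0, and the BEM and BM points lie close together on each.

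By class, protein-coding genes were higher in 10.3% and lower in 14.6% of 11571. Annotated miRNA genes were lower in 40% of 125, with a median of -0.77, and antisense genes in 27.2% of 147. At miRNA genes BEM and BM themselves lay a median of 0.54 apart on the log2 scale, against 0.06 over all measured genes. In libraries of poly(A) RNA the reads at a miRNA gene come from precursors or host transcripts, and they are few: Mir483, inside Igf2, had 1, 1 and 60 reads in BEM, BM and WT, and Mir335, inside Mest, 0, 1 and 8. The sources used here do not say whether counting used strand, so antisense genes cannot be told apart from their partners. Both miRNA genes were picked after their values were seen, for their hosts.

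The genes farthest apart between the mutants, after Barhl1, were Gstp2 (4.47 and 10.9 FPKM in BEM and BM, against 16.7 FPKM in WT) and Plac9b (5.01 and 2.25 FPKM in BEM and BM, against 0.0362 FPKM in WT) among those with a gene symbol, both of which have near-identical copies. Near the filter, Pemt, with 0.998, 0.922 and 1.08 FPKM in BEM, BM and WT, lay just inside a mean of 1 FPKM and Lefty1, with 0.406, 0.509 and 2.08 FPKM, just outside it.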

How the data were processed

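RNA of 3 cultures, 1 library per line (BEM, BM and WT), was profiled after oligo-dT selection and TruSeq preparation, per the labels' protocols. The submitters' processing notes name TopHat2, HTSeq, edgeR and the build GRCm38, without versions. The deposited tables give each library as FPKM computed by the authors, with the authors' log2 ratio, p-value and FDR of each pair of libraries, per the file headers; with 1 library per line the p-values and FDR values have no replicates behind them and were not used, and the log2 ratios served as an alternative. WT, BM and BEM values were joined by gene identifier; 4 emptied lines per table are not analysed here. Symbols missing from the tables came from GENCODE M21 (GRCm38).

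Genes averaging 1 FPKM or more were kept, and differences were taken on log2(FPKM + 0.5), which understates the change of low genes. Whole reads were recovered from the FPKM steps with a tolerance of 0.001 for 12873 of 12875 genes, 9280 (72.1%) at the annotated exon length and 3593 at another length, whose reads are less certain; library totals came from the same steps. Ratios of pooled reads carry exact Clopper-Pearson 95% intervals and a floor of 3 reads. The sources used here do not say whether chicken reads were removed or how reads shared by near-identical genes were counted.

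The members and the 51 gene lists (1304 genes, 904 measured) were chosen with earlier results of these data known. Zim1 was moved to the maternally expressed genes after its values were seen. The rule for genes to be named took Barhl1; the 15 with the largest ratio in each direction at 5 FPKM or more; up to 5 members per list role with the largest difference, and those 2-fold the other way; the most abundant; the 6 with mutants farthest apart; cell type markers; and those at the filter. Not every gene it admits is described, and 1 of the 30 largest ratios is not reported here. Promoter windows are from RefSeq (GRCm38.p6). Read recovery and calls were tested on simulated data in which every gene had its annotated length, so recovery at another length was not tested. Python 3.11.15, pandas 2.3.3, numpy 2.4.6, scipy 1.17.1 and matplotlib 3.10.9 were used. Pseudocounts, filters, scalings, mutant libraries, thresholds, chromosomes and gene subsets were varied.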

Additional observations from a re-analysis of the deposited data

How the results depend on the processing

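Of the settings tried, 5 moved a count of 2-fold genes by more than 1.5 times. A pseudocount of 5 in place of 0.5 gave 534 higher and 824 lower genes, against 1357 and 1960; a mean of at least 10 FPKM gave 529 and 561, with fewer genes measured; a 4-fold threshold gave 509 and 731. With no filter 2986 genes were lower, and without chromosomes 1, 8, 11 and 15, a setting chosen after seeing the data, 1252 were lower, from fewer genes. The other counts stayed within 1.5 times: a pseudocount of 0.05 gave 1537 and 2223, median of ratios scaling 1488 and 1800, upper quartile scaling 1515 and 1772, BEM alone 1372 and 1967, BM alone 1356 and 1970, both mutants passing 1279 and 1826, and the authors' deposited log2 ratios 1464 and 2066. Chosen after seeing the data, centring each chromosome gave 1435 and 1703, and genes with reads at the annotated length alone 994 and 1437. The scalings moved all mutant differences by 0.0809 and 0.0971 on the log2 scale.

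Of 37 list roles with a median of 1 or more in size, recomputed 428 times under 12 settings, 2 medians changed sign: the Hox genes of groups 6 to 8 without chromosomes 1, 8, 11 and 15, at 0.025 from 3 genes, and the mesothelium and kidney genes with reads at the annotated length alone, at -0.85 from 4 genes. Both rest on fewer genes. In size the medians held less well: a pseudocount of 5 moved 24 of the 37 by more than 1.5 times and left 19 under 2-fold size, and no filter moved 16 of 37 and left 13 under. Without chromosomes 1, 8, 11 and 15 these counts were 7 and 5 of 35, at 10 FPKM or more 4 and 3 of 26, and at a pseudocount of 0.05 5 and 0 of 37. The other settings moved at most 3. The 30 genes of largest ratio gave 347 values, of which 0 changed sign or lost 2-fold size. No paired analysis was possible because each line has 1 library. Depth limits genes with few reads, for which the interval or bound is printed; spread between cultures is unknown.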
